A study of Sus scrofa with 96 samples.

Results

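Tissue identity in the jejunum, kidney, liver and muscle of pigs was followed through 8 genes for transcription factors that are known to specify or maintain one of these tissues: HNF4A, FOXA2, CEBPA, CDX1, CDX2, PAX8, MYF6 and MEF2C. They were looked up among the 25880 gene identifiers that were counted. An identifier was paired with the symbol for 6 of the 8 genes. CDX1 and PAX8 had none and were not analysed here, so that the jejunum was followed through CDX2 alone and the kidney only through HNF4A, which it shares with other tissues.

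The libraries came from 24 pigs (Sus scrofa), of which 12 ate a semi-purified diet with 8% D-xylose, a pentose sugar, and 12 ate the same diet without xylose (control). Polyadenylated RNA of liver, longissimus dorsi muscle, the mucosa of the jejunum and the cortex of the kidney was read with QuantSeq, which yields fragments from the 3' end of each transcript. Muscle RNA was isolated with another kit than that of the other 3 tissues, so that muscle and kit cannot be told apart. Files were assigned to samples by the sample title found in each name, an assignment under which the marker genes matched the labelled tissue in 96 of 96 libraries, against 48 of 96 under the recorded assignment. Kidney and muscle files carry the same tissue under both, so only jejunum and liver separate the assignments. The markers cannot check the diet labels, which are the same under both assignments for 48 of 96 libraries. After 6 libraries under 1000000 counts were left out, 90 remained: 19 of jejunum (10 xylose, 9 control), 24 of kidney (12 and 12), 23 of liver (11 and 12) and 24 of muscle (12 and 12). The smallest held 1044588 counts, the median 3469040 and the largest 6942566.

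A tissue keeps its identity through a small set of transcription factors that bind enhancers and promoters of its own genes and often one another's. HNF4A is a nuclear receptor of hepatocytes, enterocytes and the proximal tubule of the kidney. FOXA2 is a forkhead factor of tissues that derive from endoderm and opens chromatin at liver genes, and CEBPA is a leucine zipper factor of hepatocytes, adipocytes and myeloid cells. CDX1 and CDX2 are homeobox factors of the intestinal epithelium, PAX8 is a paired box factor of the nephron, MYF6 (MRF4) is a myogenic basic helix-loop-helix factor of muscle fibres, and MEF2C is a MADS box factor that acts with the myogenic factors in muscle and is also known in endothelial and B cells.

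Levels are given as CPM, the count of a gene per 1000000 counts of its library, which in a 3' method need no scaling by transcript length. Each level is a mean ± SD over libraries. In bulk tissue, fewer cells of a type and less RNA per cell cannot be told apart. Fold changes between tissues came from edgeR (quasi-likelihood test, TMM scaling, lane and diet in the model, Benjamini-Hochberg adjustment over 12266 genes, threshold 0.05) and are given on the log2 scale ± SE. These fold changes differ from ratios of the CPM means, which carry no TMM scaling. A gene was called highest in a tissue when it passed the threshold there against each of the other 3 tissues and was at least 2-fold higher in each. By this rule, CDX2 was highest in jejunum, FOXA2 and CEBPA in liver, and MYF6 and MEF2C in muscle, while HNF4A was highest in none. Of all 12266 genes tested, 13.5% were called highest in jejunum, 11.4% in muscle, 7.14% in liver and 6.52% in kidney.

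**Figure D1:**
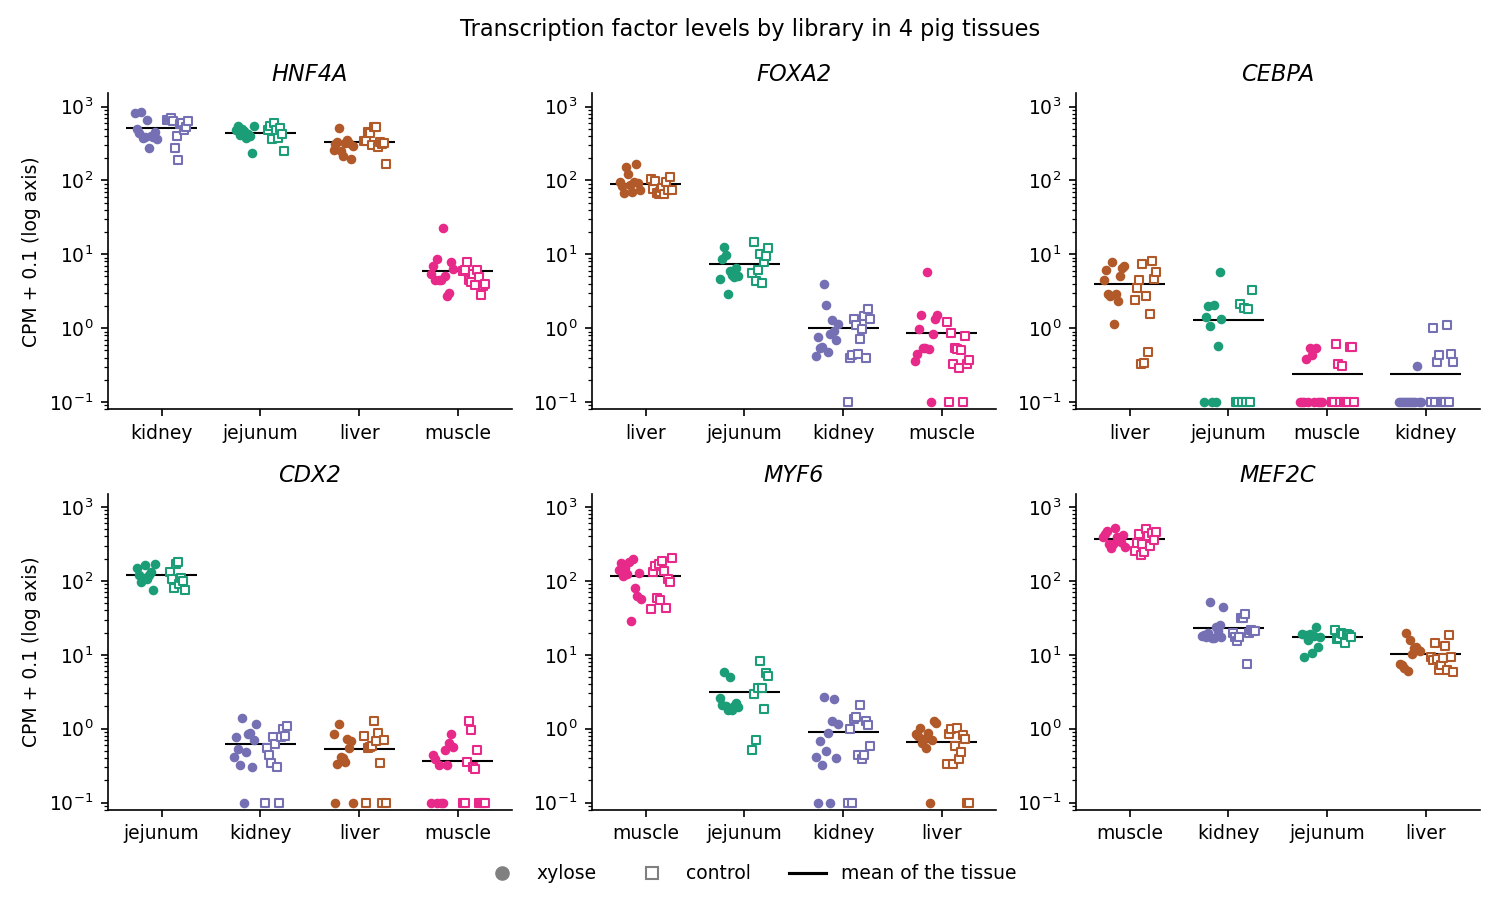
Level of each factor in 90 libraries (CPM + 0.1, log axis), with tissues ordered by their mean within each panel, filled circles for xylose libraries, open squares for control libraries and a line at the tissue mean. HNF4A stands high in 3 tissues, CDX2, FOXA2, MYF6 and MEF2C in 1 tissue each, and CEBPA is low throughout.

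Transcripts typical of one tissue appeared at around 1% of their level or less in the libraries of the others, which sets a limit to what presence means here. Whether these were reads assigned to the wrong library was not tested. Genes known to be made mainly by one tissue served as the yardstick: markers of 100 CPM or more in their own tissue, with the level in another tissue as a percentage of that. The median over 4 jejunum markers was 0.434% in kidney, 0.271% in liver and 0.232% in muscle. Over 8 kidney markers it was 1.11% in jejunum, 0.660% in liver and 0.490% in muscle. For 12 liver markers it was 1.14% in jejunum, 0.887% in kidney and 0.637% in muscle, and for 7 muscle markers 1.15% in jejunum, 0.783% in kidney and 0.568% in liver. The highest single value was 9.17%, of the kidney marker SLC13A3 in liver. The medians, applied to a factor's levels in the other tissues and summed, give the level that such percentages alone would leave in a tissue, here called the marker-based level.

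HNF4A (ENSSSCG00000007371) was abundant in 3 tissues and nearly lacking in muscle. Its lowest, median and highest values were 189, 494 and 833 CPM in kidney, 232, 471 and 603 CPM in jejunum, 167, 324 and 530 CPM in liver, and 2.62, 4.92 and 22.9 CPM in muscle. The 3 high tissues overlapped broadly, and none of their libraries overlapped with muscle. Means were 512 ± 171 CPM in kidney (n = 24), 441 ± 96.2 CPM in jejunum (n = 19), 335 ± 98.8 CPM in liver (n = 23) and 5.80 ± 3.96 CPM in muscle (n = 24).

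HNF4A was higher than in muscle by a log2 fold change of 5.12 ± 0.18 in jejunum (edgeR, adjusted p = 4.47e-46), by 5.05 ± 0.17 in kidney (adjusted p = 2.73e-46) and by 5.31 ± 0.17 in liver (adjusted p = 1.57e-47). Among those 3 tissues edgeR called no difference: the log2 fold change of jejunum over kidney was 0.06 ± 0.15 (adjusted p = 0.713), jejunum over liver -0.20 ± 0.15 (adjusted p = 0.235) and kidney over liver -0.26 ± 0.14 (adjusted p = 0.101). The order of the 3 tissues depended on the scaling. TMM factors had medians of 1.58 in kidney, 1.30 in jejunum, 0.832 in liver and 0.598 in muscle, and with TMM-scaled CPM the mean of HNF4A was 391 in liver, 336 in jejunum and 325 in kidney, where unscaled CPM put kidney first and liver last. On library totals alone, edgeR called HNF4A higher in kidney than in liver by a log2 fold change of 0.62 (adjusted p = 5.23e-05) and in jejunum than in liver by 0.42 (adjusted p = 0.00787). On library totals the median log2 fold change of all 12266 genes lay at 0.99 for kidney over liver and at 0.73 for jejunum over liver, both above the values of HNF4A, while with TMM the medians of all genes lay between 0.00 and 0.16 over the 6 pairs of tissues.

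The muscle level of HNF4A lay at what the markers give. Its 5.80 CPM stood beside a marker-based level of 5.66 CPM. By lane, 5.60 CPM stood beside 6.11 CPM in lane 7, and 5.999 CPM beside 5.30 CPM in lane 8. The highest muscle value, 22.9 CPM, belonged to xylose replicate 7, a muscle library in which the liver markers reached 2.56% of their liver level, against at most 0.891% in the other 23. That value is a larger part of the liver mean of HNF4A, 335 CPM, than 2.56%, and its source was not tested. Without this library, muscle HNF4A averaged 5.06 CPM beside a marker-based level of 5.17 CPM.

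FOXA2 (ENSSSCG00000007114) was a liver transcript with a lower level in jejunum. The lowest, median and highest values were 65.7, 83.6 and 166 CPM in liver, 2.81, 5.96 and 14.6 CPM in jejunum, 0, 0.704 and 3.90 CPM in kidney, and 0, 0.425 and 5.63 CPM in muscle. All 23 liver libraries stood above every library of the other tissues, and 18 of 19 jejunum libraries stood above the whole kidney range. The liver mean was 90.6 ± 26.7 CPM (n = 23), which is 12.45 times that of jejunum in unscaled CPM. With TMM scaling, FOXA2 was higher in liver than in jejunum by a log2 fold change of 4.29 ± 0.22 (edgeR, adjusted p = 2.48e-33), or 19.5-fold. It was higher in liver than in kidney by 7.55 ± 0.24 (adjusted p = 1.56e-48) and than in muscle by 6.57 ± 0.24 (adjusted p = 1.33e-44).

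In jejunum, FOXA2 averaged 7.28 ± 3.28 CPM, which is 8.03% of its liver level and 6.93 times its marker-based level of 1.05 CPM. It was present in 19 of 19 jejunum libraries with 5 to 31 counts each, and was higher there than in kidney by a log2 fold change of 3.26 ± 0.25 (edgeR, adjusted p = 2.09e-21). In kidney it averaged 0.906 CPM beside a marker-based level of 0.841 CPM. The muscle mean of 0.746 CPM stood beside a marker-based level of 0.598 CPM, and 5.63 CPM, the highest muscle value, again came from xylose replicate 7. In that library FOXA2 stood at a larger part of its liver mean, 90.6 CPM, than the 2.56% of the liver markers, which was not tested further. Without that library the muscle mean was 0.534 CPM beside a marker-based level of 0.495 CPM. Kidney and muscle libraries held a median of 2.5 and 2 counts of FOXA2, and no difference is read here between 2 tissues that both have a median of 3 counts or fewer.

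CEBPA (ENSSSCG00000002866) was highest in liver, but its counts were low even there. Whether its 3' end lies within the annotation used was not tested, so low counts need not mean few transcripts. Liver libraries ranged from 0.231 to 7.97 CPM with a median of 3.43 CPM, from 1 to 33 counts each, and averaged 3.84 ± 2.45 CPM (n = 23). Jejunum libraries ranged from 0 to 5.63 CPM with a median of 0.959 CPM, and 8 of 19 held no count. It was at 0 in 17 of 24 kidney libraries, which held 14 counts in all, and in 15 of 24 muscle libraries, which held 13. The liver and jejunum ranges overlapped, with 7 of 23 liver libraries above the highest jejunum library.

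CEBPA was higher in liver than in jejunum by a log2 fold change of 2.35 ± 0.41 (edgeR, adjusted p = 2.74e-07), than in kidney by 5.45 ± 0.45 (adjusted p = 1.84e-19) and than in muscle by 4.14 ± 0.45 (adjusted p = 7.43e-14). The jejunum mean of 1.17 CPM was 25.0 times its marker-based level of 0.0469 CPM, 15.9 times in lane 7 and 30.7 times in lane 8. Kidney libraries held 0 to 6 counts of CEBPA and muscle libraries 0 to 2, so that no difference is read between the 0.137 CPM in kidney and the 0.140 CPM in muscle. CEBPG, the gene next to CEBPA in the pig assembly of the reference table, was counted at 71.9 CPM in jejunum and 29.4 CPM in liver, and whether reads are split between them was not tested.

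CDX2 (ENSSSCG00000009317) was a jejunum transcript. The lowest, median and highest jejunum values were 74.6, 111 and 180 CPM, with a mean of 120 ± 32.6 CPM (n = 19). Kidney libraries ran from 0 to 1.30 CPM, liver libraries from 0 to 1.17 CPM and muscle libraries from 0 to 1.16 CPM, each with 5 counts or fewer. The highest value outside jejunum was 1.74% of the lowest jejunum value. CDX2 was higher in jejunum than in kidney by a log2 fold change of 8.06 ± 0.24 (edgeR, adjusted p = 1.68e-50), than in liver by 7.36 ± 0.24 (adjusted p = 3.46e-47) and than in muscle by 7.47 ± 0.25 (adjusted p = 2.05e-47).

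The traces of CDX2 outside jejunum lay near the marker-based level in kidney and muscle. In liver the mean was above that level, on 41 counts in all over 23 libraries, with a median of 2 counts. No excess is read from so few counts. The mean of 0.514 CPM in kidney stood beside a marker-based level of 0.526 CPM, 0.434 CPM in liver beside 0.330 CPM, and 0.263 CPM in muscle beside 0.283 CPM. As percentages of jejunum these levels were 0.429%, 0.362% and 0.220%, the highest of which is in the tissue where the jejunum markers are also highest. The 0.362% in liver stood above all 4 jejunum markers there, whose highest was 0.306%, and by lane CDX2 in liver had 0.507 CPM in lane 7, which is 1.5 times the marker-based level, and 0.367 CPM in lane 8, which is 1.10 times. The folds above are therefore those of the counts as they stand, with any such trace included. CDX4, the remaining gene of the family, had no count in any kept library.

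MYF6 (ENSSSCG00000026533) was a muscle transcript with a wide spread among muscle libraries. The lowest, median and highest muscle values were 28.2, 126 and 202 CPM, a 7.18-fold range, with a mean of 118 ± 54.3 CPM (n = 24). The other tissues ran from 0.417 to 8.10 CPM in jejunum, from 0 to 2.60 CPM in kidney and from 0 to 1.16 CPM in liver, all below every muscle library. MYF6 was higher in muscle than in jejunum by a log2 fold change of 6.54 ± 0.27 (edgeR, adjusted p = 5.65e-40), than in kidney by 8.48 ± 0.26 (adjusted p = 1.94e-49) and than in liver by 8.16 ± 0.27 (adjusted p = 8.07e-47). The lowest muscle value came from the library with liver transcripts, xylose replicate 7, in which the muscle markers stood at 49.5% of their mean level in muscle and MEF2C had its highest value.

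MYF6 in kidney and liver lay at the marker-based level, with 0.791 beside 0.939 CPM in kidney and 0.568 beside 0.681 CPM in liver. In jejunum it averaged 3.02 ± 1.99 CPM, 2.21 times the marker-based level of 1.36 CPM. By lane, 2.42 CPM stood beside 1.57 CPM in lane 7, and 3.45 CPM beside 1.22 CPM in lane 8. As a percentage of muscle, 2.56% in jejunum exceeded the 7 muscle markers used, all of at least 100 CPM in muscle, whose highest stood at 1.40%. Among the less abundant muscle genes, which were not used, CASQ1 (chosen after its values were seen), a calcium-binding protein of the sarcoplasmic reticulum, had 1.96 CPM in jejunum against 73.9 CPM in muscle, or 2.65%. The other muscle markers under 100 CPM went the other way. ACTN3 had 0.587 CPM in jejunum against 62.3 CPM in muscle, and ATP2A1 had 0.969 CPM against 94.5 CPM, both lower percentages than that of MYF6. The highest jejunum value was 8.10 CPM in control replicate 7, which is 9 counts, and this library held the muscle markers at 2.08% of their muscle level. The next was 5.74 CPM in xylose replicate 3, which is 6 counts, with the muscle markers at 3.68%, the highest of the 19 jejunum libraries. Jejunum libraries held 1 to 11 counts of MYF6 each, and the part of reads from other libraries in this level was not tested. MYF5, the neighbour of MYF6 and a myogenic factor of muscle precursors, had 0.0117 CPM in muscle and 0.319 CPM in jejunum, with a count in 1 of 24 muscle libraries and 8 of 19 jejunum libraries.

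MEF2C (ENSSSCG00000014149) was highest in muscle and present in all 4 tissues. The lowest, median and highest values were 227, 372 and 527 CPM in muscle, 7.47, 19.8 and 51.1 CPM in kidney, 9.13, 17.8 and 23.5 CPM in jejunum, and 5.70, 9.13 and 19.4 CPM in liver. Every muscle library stood above all others, and the ranges of the other 3 tissues overlapped. The muscle mean was 369 ± 83.9 CPM (n = 24), which is 16.1 times that of kidney in unscaled CPM. With TMM scaling, MEF2C was higher in muscle than in kidney by a log2 fold change of 5.44 ± 0.14 (edgeR, adjusted p = 7.01e-56), or 43.3-fold. It was higher in muscle than in jejunum by 5.58 ± 0.16 (adjusted p = 2.79e-52) and than in liver by 5.74 ± 0.15 (adjusted p = 5.34e-56).

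Outside muscle, MEF2C exceeded its marker-based level in each tissue. It averaged 22.9 CPM in kidney, 7.49 times the marker-based 3.05 CPM; 17.1 CPM in jejunum, 3.71 times the marker-based 4.60 CPM; and 10.2 CPM in liver, 4.46 times the marker-based 2.29 CPM. Kidney over liver was called at a log2 fold change of 0.31 ± 0.12 (edgeR, adjusted p = 0.0251), but not with all 96 libraries kept (0.26, adjusted p = 0.0639), in lane 7 alone (0.40, adjusted p = 0.0597) or in lane 8 alone (0.17, adjusted p = 0.399). Jejunum over kidney was -0.15 ± 0.13 (adjusted p = 0.312), and -0.43 on library totals alone (adjusted p = 0.00641). Jejunum over liver was 0.16 ± 0.14 (adjusted p = 0.282), and 0.75 on library totals alone (adjusted p = 3.72e-06). Markers of endothelium, where MEF2C is also known, summed to a median of 409 CPM in kidney, 235 CPM in liver, 143 CPM in muscle and 28.3 CPM in jejunum over 7 genes, with none of the 7 at 0 in all libraries of a tissue. B and plasma cell markers summed to a median of 44.8 CPM in jejunum, 28.2 CPM in kidney, 12.1 CPM in liver and 2.64 CPM in muscle over 7 genes. Their part in the MEF2C levels was not tested beyond the relations given below.

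**Figure D2:**
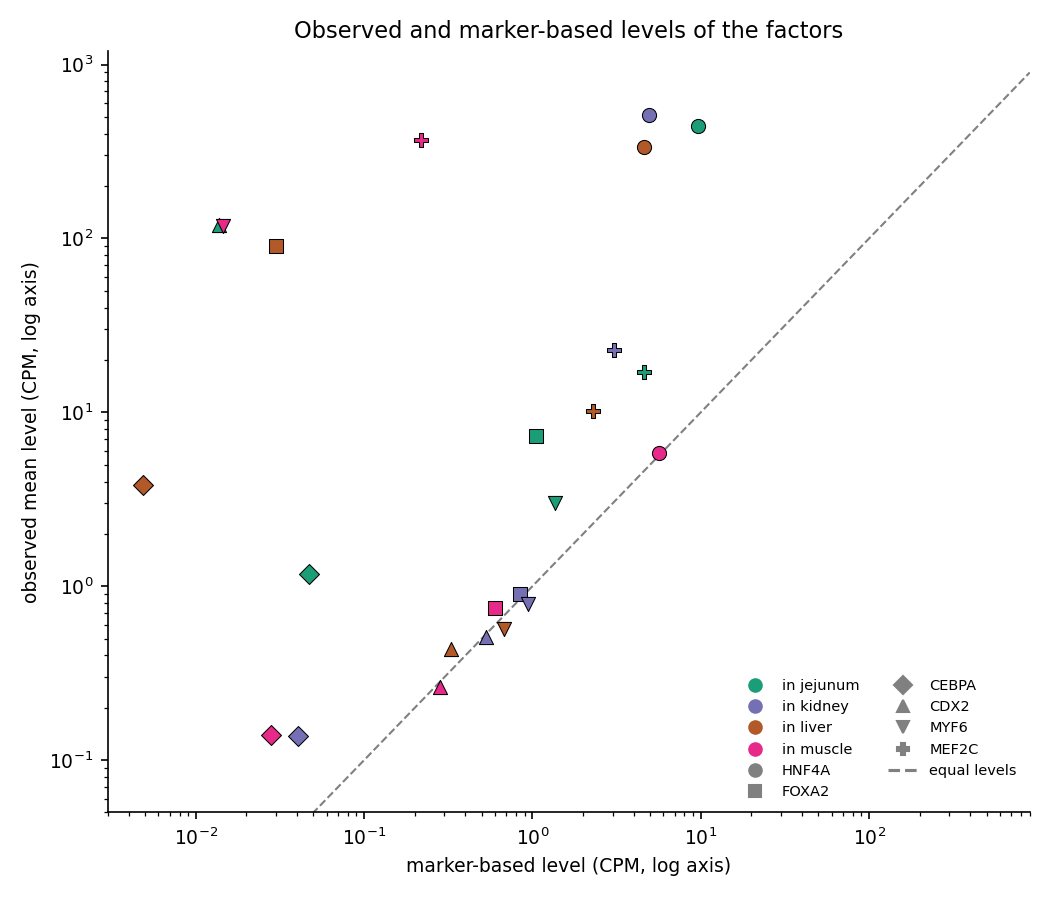
Observed mean level of each factor in each tissue (CPM, log axis) against the marker-based level (CPM, log axis), coloured by tissue and shaped by factor, with a dashed line where both are equal. HNF4A in muscle, FOXA2 in kidney and muscle, MYF6 in kidney and liver, and CDX2 in kidney and muscle lie near the line. CDX2 in liver lies at 1.32 times the marker-based level, on 41 counts in all, and FOXA2 in muscle at 1.25 times. FOXA2, MYF6 and CEBPA in jejunum and MEF2C in every tissue lie above the line, as does CEBPA in kidney and muscle on 14 and 13 counts in all.

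Counted by pair of tissues, the threshold was passed by 4 of the 6 factors for jejunum over kidney, where 74.5% of all genes passed in either direction, by 4 for jejunum over liver (76.4% of all genes) and by 6 for jejunum over muscle (81.3%). For kidney over liver 4 passed (66.2% of all genes), for kidney over muscle 5 (74.6%) and for liver over muscle 5 (75.1%). These counts lie near those of all genes. They include CDX2 for kidney over liver and FOXA2 and CEBPA for kidney over muscle, where both tissues had a median of 3 counts or fewer.

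Relatives of the factors had tissue patterns of their own. HNF4G, the paralog of HNF4A, was highest in jejunum, at 74.1 ± 55.5 CPM against 8.58 CPM in kidney, 1.81 CPM in liver and 0.262 CPM in muscle. FOXA1 and FOXA3 were both called highest in liver, at 47.2 ± 17.4 and 298 ± 112 CPM, and with FOXA2 they gave 3 of 3 family members there. In the CEBP family 1 of 4 tested relatives was called: CEBPD, at 73.8 ± 33.2 CPM in liver, a call that was lost on library totals alone, where CEBPG was called highest in jejunum. CEBPB averaged 35.8 CPM in liver and 35.6 CPM in muscle and was highest in none.

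The myogenic relatives MYOD1 and MYOG, which direct the commitment and fusion of myoblasts, were called highest in muscle, at 36.9 ± 13.8 and 304 ± 138 CPM. Of the MEF2 relatives, MEF2D was called highest in muscle at 147 ± 39.6 CPM. MEF2A was called there at 105 ± 29.2 CPM with TMM but not on library totals alone, and MEF2B was not called. PAX2, the relative of PAX8 in the nephron, was called highest in kidney at a low level of 2.79 ± 2.48 CPM.

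**Figure D3:**
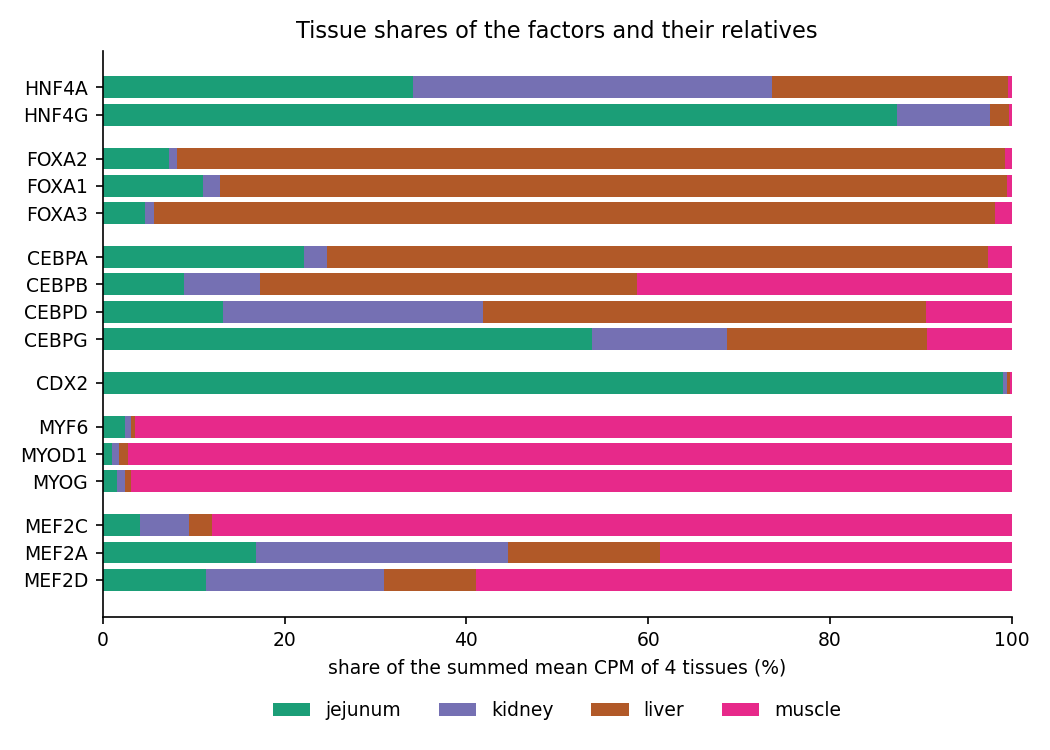
Share of each tissue in the sum of the mean CPM of 4 tissues (%) for 6 factors and 10 relatives, grouped by family. FOXA2, FOXA1 and FOXA3 lie mostly in liver, MYF6, MYOD1 and MYOG mostly in muscle, CDX2 almost entirely in jejunum, and HNF4A is spread over 3 tissues where HNF4G is mostly in jejunum.

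Other transcription factors known from each tissue were counted in lists, with the shares of all genes given above as background. Listed were 16 liver, 16 intestinal, 20 kidney and 16 muscle factors. Those with no paired identifier or too few counts were not tested. Of 12 tested liver factors, 4 were called highest in liver: ATF5 (164 CPM), ONECUT1 (131 CPM), NR1H4 (74.6 CPM), the bile acid receptor, and PROX1 (28.2 CPM). A further 4 were highest in jejunum, among them NR0B2 (785 CPM), a repressor in bile acid synthesis, and NR1I2 (523 CPM), the pregnane X receptor. Another 3 were highest in none, among them NR5A2 with 203 CPM in liver and 174 CPM in jejunum. Of 13 tested intestinal factors, 10 were called highest in jejunum, among them ELF3 (321 CPM), KLF5 (231 CPM), VDR (155 CPM) and ISX (49.8 CPM), and GATA4, HES1 and SOX9 were called in none.

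Kidney, which has no analysed factor of its own here, was represented by the kidney list. Of 14 tested factors 9 were called highest in kidney, among them GATA3 (209 CPM), ESRRG (146 CPM), EMX2 (108 CPM) and WT1 (54.3 CPM), the podocyte factor. HOXD8 was at 224 CPM in kidney and 122 CPM in muscle and was not called. Of 12 tested muscle factors, 10 were called highest in muscle, among them NFIX (203 CPM), TEAD1 (160 CPM) and VGLL2 (61.0 CPM), and 9 were called there on library totals alone.

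Known targets of the factors were counted in the same way. Listed were 8 genes for HNF4A, 6 for FOXA2, 7 for CEBPA, 8 for CDX, 5 for PAX8 and 9 for MYF6 and MEF2C. The target lists share genes with the other lists. Of the counted targets, CKM, ACTA1 and MYOM1 are also muscle markers, and SI, CDH17, MUC2, GUCY2C and APOA4 jejunum markers. CDH16 is also a kidney marker and ALB a liver marker. WT1, LHX1 and GATA3 are also in the kidney list, ISX in the intestinal list, FOXA1 in the FOXA family and CEBPE in the CEBP family. DES is also a smooth muscle marker, TNNI1 a slow fibre marker and ADIPOQ an adipocyte marker. The tissue of these targets was thus partly set by the choice of genes. All 6 tested targets of MYF6 and MEF2C, among them CKM, the muscle creatine kinase (6843 CPM), and DES, desmin (2374 CPM), were highest in muscle. All 4 tested targets of PAX8, among them CDH16, kidney cadherin (541 CPM), were highest in kidney. Of 6 CDX targets 5 were highest in jejunum, among them SI, sucrase-isomaltase (630 CPM), and KRT20 (6643 CPM). Of 5 FOXA2 targets 4 were highest in liver, among them G6PC1, glucose-6-phosphatase (523 CPM), and TAT (381 CPM). The targets of HNF4A were divided: of 7, 4 were highest in liver, among them TTR, transthyretin (6308 CPM), MTTP was highest in jejunum (237 CPM), and APOB was called in none, at 3287 CPM in liver and 3336 CPM in jejunum. Of 5 CEBPA targets 2 were highest in liver, ALB and FASN, and ADIPOQ, adiponectin, in muscle at 14.4 CPM.

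The genes whose shares over the 4 tissues lay closest to those of a factor were found among 9611 genes with a symbol and at least 5 CPM in some tissue. Likeness was measured over 4 tissue means, as the percentage points of the summed level that would have to move between tissues to make both alike. For HNF4A, XYLB, xylulokinase of the xylulose pathway, was closest at 2.78 points, with 113 CPM in kidney, 88.3 CPM in jejunum, 79.4 CPM in liver and 1.76 CPM in muscle. It was followed by STAP1 and by the transketolase TKT, an enzyme of pentose phosphates, at 3.04 and 3.30 points. The genes closest to FOXA2 were CFB, complement factor B, LIPC, hepatic lipase, and LBP, lipopolysaccharide binding protein, at 0.399 to 1.15 points. C5, C4BPB and C3, all of the complement system, were closest to CEBPA at 2.06 to 3.65 points, of 9612 genes.

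CDX2 had ENPP7, an intestinal sphingomyelinase, SPINK4 and SMIM31 beside it within 0.0662 to 0.0798 points. MYF6 had STYXL2, VGLL2, a cofactor of TEAD factors in muscle, and SEPTIN1 beside it within 0.0774 to 0.539 points. The jejunum shares of STYXL2 and VGLL2 were 2.50% and 2.64%, beside 2.47% for MYF6. These shares entered the choice of the genes, so their closeness follows from that choice. MEF2C had PPP1R1A, a phosphatase inhibitor, FBXO40, a muscle ubiquitin ligase component, and DTNA, dystrobrevin alpha, within 1.20 to 1.88 points.

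Within a tissue, 7 relations between a factor and another factor or a cell type list were computed over libraries, on log2(CPM + 1) with two-sided permutation p-values (100000 resamples). In jejunum, CDX2 and HNF4A varied together. Pearson's r was 0.746 (permutation p = 0.00017, adjusted over the 7 relations 0.00119) and Spearman's rho was 0.695 (permutation p = 0.00131, adjusted 0.00917) over 19 libraries. Without the 2 libraries farthest from the median of CDX2, r was 0.737, and within lanes it was 0.758 (lane 7, n = 8) and 0.828 (lane 8, n = 11). The libraries with the lowest CDX2, control replicate 11 at 74.6 CPM and xylose replicate 11 at 76.0 CPM, had the lowest HNF4A, at 253 and 232 CPM. The library with the highest CDX2, control replicate 7 at 180 CPM, had 480 CPM of HNF4A. With the library total on a log scale, CDX2 had r = -0.26 and HNF4A r = -0.05. Of 12 counted jejunum markers 11 were tested, of which 8 were called highest in jejunum, DGAT2 in liver and 2 in no tissue. With the mean of these 12 markers, a relation added after the data were seen, CDX2 had r = -0.235 (permutation p = 0.331, adjusted over the 2 added relations 0.331) and rho = -0.284 (permutation p = 0.237, adjusted 0.237). HNF4A had r = -0.367 with them (permutation p = 0.122, adjusted 0.243) and rho = -0.495 (permutation p = 0.0326, adjusted 0.0652). Without the 2 farthest libraries r was -0.0426 for CDX2 and -0.430 for HNF4A, and within lanes 7 and 8 it was -0.0927 and -0.391 for CDX2 and -0.352 and -0.319 for HNF4A.

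**Figure D4:**
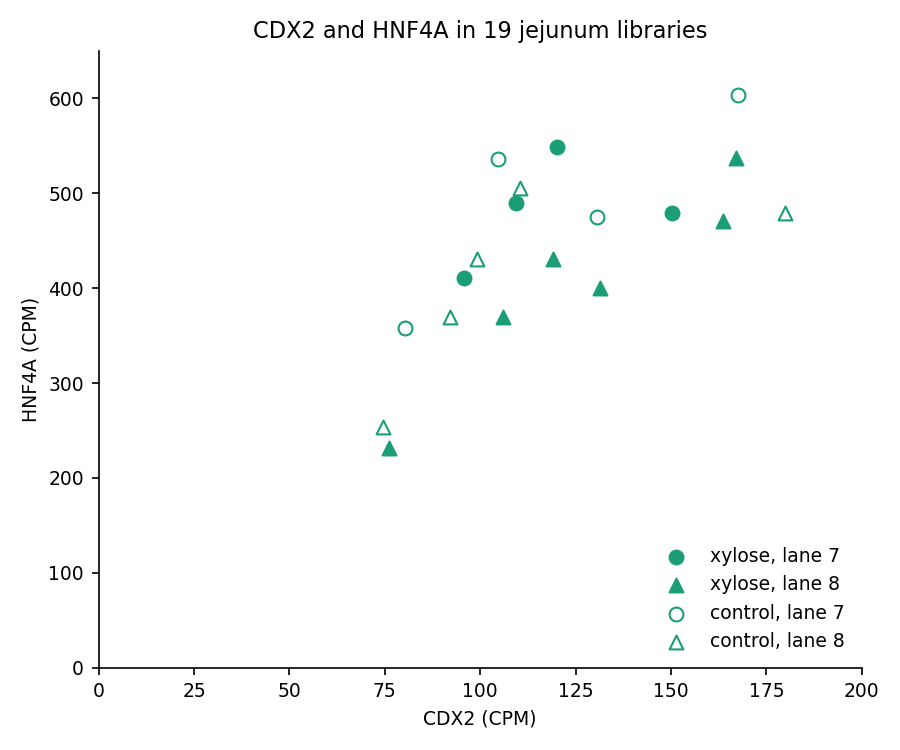
HNF4A (CPM) against CDX2 (CPM) in 19 jejunum libraries, filled for xylose and open for control, with circles for lane 7 and triangles for lane 8. HNF4A runs from 232 to 603 CPM as CDX2 runs from 74.6 to 180 CPM, with both diets and both lanes spread along the cloud.

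In liver, HNF4A and CEBPA had r = -0.409 (permutation p = 0.0528, adjusted 0.128) and rho = -0.528 (permutation p = 0.0111, adjusted 0.0389) over 23 libraries. By lane r was -0.717 (lane 7, n = 11) and -0.169 (lane 8, n = 12), and CEBPA, with 1 to 33 counts a library, had r = -0.464 with the library total on a log scale. Without the 2 libraries farthest from the median of HNF4A, r was -0.323. HNF4A and FOXA2 in liver had r = 0.0808 (permutation p = 0.713, adjusted 0.713) and rho = 0.0544 (permutation p = 0.804, adjusted 0.848), with r = 0.0307 without the 2 farthest libraries.

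In muscle, MYF6 and MEF2C had r = 0.372 (permutation p = 0.0734, adjusted 0.128) and rho = 0.400 (permutation p = 0.0536, adjusted 0.125) over 24 libraries. The r was 0.614 without the 2 libraries farthest from the median of MYF6, 0.687 in lane 7 and 0.340 in lane 8 (n = 12 each). CEBPA with the mean of 6 adipocyte markers in muscle had r = 0.371 (permutation p = 0.0698, adjusted 0.128) and rho = 0.268 (permutation p = 0.207, adjusted 0.362), and r = 0.0909 without the 2 farthest libraries. Muscle libraries held 0 to 2 counts of CEBPA, with 15 of 24 at 0, so no relation is read from these values. MEF2C with the endothelial list in kidney had r = 0.253 (permutation p = 0.227, adjusted 0.318) and rho = 0.0417 (permutation p = 0.848, adjusted 0.848), and r = -0.0900 without the 2 farthest libraries. MEF2C with the B and plasma cell list in jejunum had r = -0.165 (permutation p = 0.504, adjusted 0.588) and rho = -0.244 (permutation p = 0.313, adjusted 0.438), and r = -0.419 without the 2 farthest libraries.

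The diet contrast asked whether xylose in the feed changed these factors. No gene passed the threshold with edgeR in any tissue: 0% of 8867 genes in jejunum, 0% of 10128 genes in kidney, 0% of 9194 genes in liver and 0% of 8436 genes in muscle, with 404, 720, 618 and 620 genes at an unadjusted p under 0.05. DESeq2 called 0, 0, 0 and 2. Of the factors, 13 combinations with a tissue had enough counts to be tested, and none was called.

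In jejunum, the lowest, median and highest CDX2 values were 76.0, 120 and 167 CPM in xylose libraries, against 74.6, 105 and 180 CPM in control libraries. The groups overlapped over almost their whole range. The log2 fold change of xylose over control was 0.19 ± 0.19 for CDX2 (edgeR, adjusted p = 0.956), with a 95% interval from -0.21 to 0.58, and 0.06 ± 0.17 for HNF4A (adjusted p = 0.983), with an interval from -0.30 to 0.42. In liver, FOXA2 had 67.3, 92.1 and 166 CPM in xylose libraries, against 65.7, 75.4 and 112 CPM in control libraries, and a log2 fold change of 0.26 ± 0.16 (edgeR, adjusted p = 0.722; interval -0.06 to 0.58). HNF4A in liver averaged 306 ± 86.9 CPM with xylose (n = 11) and 362 ± 105 CPM in controls (n = 12), a log2 fold change of -0.25 ± 0.15 (edgeR, adjusted p = 0.723; interval -0.56 to 0.06).

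CEBPA in liver averaged 4.35 ± 2.19 CPM with xylose (n = 11) and 3.38 ± 2.68 CPM in controls (n = 12). Its log2 fold change of 0.45 ± 0.46 (edgeR, adjusted p = 0.824) had the widest interval of the 13, from -0.49 to 1.40. In muscle, MYF6 averaged 120 ± 53.9 CPM with xylose and 115 ± 57.1 CPM in controls (n = 12 each), and MEF2C 381 ± 76.1 and 357 ± 92.8 CPM. Their log2 fold changes were 0.01 ± 0.27 for MYF6 (edgeR, adjusted p = 0.999; interval -0.55 to 0.56) and 0.08 ± 0.12 for MEF2C (edgeR, adjusted p = 0.915; interval -0.16 to 0.32). In kidney, HNF4A averaged 492.8 ± 183 CPM with xylose and 530 ± 163 CPM in controls (n = 12 each), with a log2 fold change of -0.08 ± 0.21 (edgeR, adjusted p = 0.948; interval -0.50 to 0.34). A change of 2-fold in either direction lay outside the interval in 11 of the 13 combinations, all but CEBPA in liver and HNF4A in muscle, the second of which stands at its marker-based level.

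**Figure D5:**
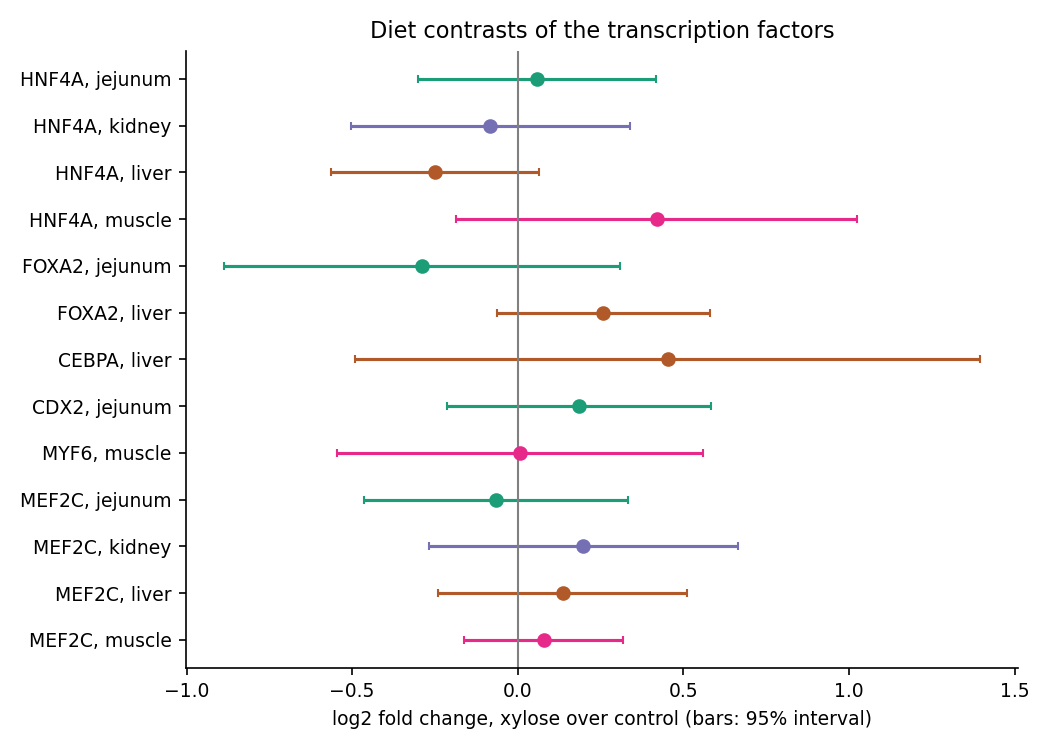
Log2 fold change of xylose over control from edgeR for the 13 tested combinations of factor and tissue, with 95% intervals and points coloured by tissue. Every interval includes 0, and the widest is that of CEBPA in liver, from -0.49 to 1.40.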

How the data were processed

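Each library has 1 deposited file of raw counts per gene for 25880 Ensembl identifiers, 14857 of which are paired with a symbol in a table of gene names. The authors' counts came from reads processed with STAR and featureCounts, per the submitters' processing notes, which give no versions. The build, the annotation, the strand setting and the treatment of multimapping reads were not given in the sources used here. This leaves counts of overlapping, antisense or near-identical genes uncertain, and a gene whose 3' end lies outside its annotation is undercounted. Gene neighbours were taken from the reference table of Sscrofa11.1, without coordinates. Counts are of reads, as the labels describe no molecular identifier.

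For 90 of 96 files the title in the name belongs to another sample than the recorded one, and the file went to the sample of that title. Each lane then held both diets of every tissue. Libraries under 1000000 counts were left out. Tissue pairs were tested with edgeR 4.0.16 in R 4.3.3 (quasi-likelihood F test, TMM, filterByExpr) on means of the 8 groups of tissue and diet plus lane, and diet within each tissue with diet plus lane, with Benjamini-Hochberg adjustment over all genes tested and a threshold of 0.05. Standard errors are the size of the fold change over the square root of F. The fits were also run on simulated counts. For the tissue fit every simulated library was drawn from the liver means, so broad differences in composition between tissues were not covered. Relations used Python 3.11.15 with numpy 2.4.6 and pandas 2.3.3.

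The members, gene lists and tests were chosen with earlier results of these data known. Named were the 8 members, up to 4 genes a list by level in the list's tissue, and the 3 nearest genes by tissue shares. Beside these, genes of a list that were called in another tissue or in none, relatives, and gene neighbours were named after their values were seen. A few genes of the lists are not reported here. The alternatives comprised library totals alone, DESeq2 size factors, no filter, DESeq2 1.42.0 as the test, all 96 libraries, the recorded assignment, no lane term, each lane alone, a replicate block and other scalings of the relations. Leaving out 1 muscle library and relations with the jejunum markers were added after the data were seen. The labels do not tie samples of different tissues to an animal.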

Additional observations from a re-analysis of the deposited data

Results flagged for a closer look

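CEBPA stood at 5.63 CPM in the jejunum library of xylose replicate 11, far from the other 9 xylose jejunum libraries, which ran from 0 to 1.96 CPM. The gap to the nearest was 0.651 of the group's range, above the critical ratio of 0.466 for 10 libraries. The value is 8 counts of 1420184, and the liver markers in this library stood at 1.27% of their liver level, within the range of 0.583% to 2.64% over the 19 jejunum libraries. The same library had the lowest HNF4A in jejunum, at 232 CPM. It was the only value past the ratio among 12 groups of 4 to 10 libraries, of which chance flags about 1 in 20.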

How the results depend on the processing

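For the 36 tissue contrasts and 13 diet contrasts of the factors, 460 values under the alternatives run kept their direction and their side of the threshold, and 28 turned in direction and are given here. A further 26 gained or lost a call in the same direction (7 gained, 19 lost), 8 of them under the recorded assignment. Values for contrasts are log2 fold changes. The highest-tissue calls of the factors were the same with TMM, DESeq2 size factors and library totals alone. Low counts limit CEBPA everywhere and every factor at its marker-based level.

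On library totals alone, 1797 genes were called highest in kidney, 572 in liver and 644 in muscle, against 800, 876 and 1402 with TMM. HNF4A turned to -0.19 for jejunum over kidney, 0.42 for jejunum over liver and 0.62 for kidney over liver, and to -0.018 for xylose over control in jejunum. CDX2 turned to 0.11 for kidney over liver and 0.73 for kidney over muscle, MYF6 to 0.53 for kidney over liver and FOXA2 to 0.39 for kidney over muscle, values fitted at few counts, from which no difference is read. Without the filter on low counts, 3559 genes were called highest in jejunum, against 1655 with it, and MYF6 for xylose over control in muscle was -0.0049.

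Under the recorded assignment, 894 genes were called highest in jejunum and 1666 in liver, and 1, 2, 887 and 281 genes were called for diet in jejunum, kidney, liver and muscle, where diet and lane cannot be told apart. Jejunum over liver then turned for all 6 factors: -7.36 for CDX2, 2.42 for CEBPA, 4.28 for FOXA2, 0.21 for HNF4A, -0.17 for MEF2C and -1.51 for MYF6, as all 48 files of these tissues carry the other tissue's label. For xylose over control it gave -0.29 for HNF4A and 0.32 for MEF2C in jejunum, -0.29 for FOXA2 in liver and -0.035 for MYF6 in muscle, and it called MEF2C in muscle at 0.42 (edgeR, adjusted p = 0.0464).

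With all 96 libraries, HNF4A for jejunum over kidney was -0.17, and MEF2C with the B and plasma cell list in jejunum had r = 0.152. In lane 7 alone HNF4A was -0.0235 for jejunum over kidney, and for xylose over control it was -0.15 in muscle and 0.0687 in kidney, with FOXA2 at 0.24 in jejunum and MEF2C at -0.0728 in liver. In lane 8 alone MYF6 was 0.17 for kidney over liver and -0.37 for xylose over control in muscle, and MEF2C 0.0472 for xylose over control in jejunum. Where not stated, the cause was not tested.

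For diet in muscle, DESeq2 called 2 genes, TMEM109 (-0.48) and UBR3 (0.37), and edgeR called 1, CNN1 (-0.93), without the muscle library with liver transcripts. None of these is a factor studied here.

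Samples of different tissues share a plate position by title, but same-position libraries did not all vary together (median r of 0.130 to 0.257, lowest -0.489, against medians of -0.00894 to 0.0703 for other positions, and 12 to 18 pairs over 0.1 in each of the 6 tissue comparisons). Positions were not taken as pairs, since that needed every pair over 0.1. With plate position as a replicate block, the calls lost were CEBPA for kidney over muscle (-0.98, adjusted p = 0.131 with edgeR) and CDX2 for kidney over liver (-0.65, adjusted p = 0.0797), both between tissues at a median of 3 counts or fewer, where no difference is read. No paired analysis was possible for diet because the series describes 12 animals on each diet.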

Other observations

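Of the 6 libraries under 1000000 counts, 5 were of jejunum. In these, CDX2 ran from 39.7 to 128 CPM (8 to 117 counts), HNF4A from 218 to 440 CPM, and FOXA2 from 4.96 to 13.4 CPM. The liver library with 13418 counts held 4 counts of HNF4A and none of the other factors.

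Kidney xylose replicate 5 held the highest kidney value of 4 of the 6 factors: FOXA2 at 3.90 CPM, CDX2 at 1.30 CPM, MYF6 at 2.60 CPM and MEF2C at 51.1 CPM. In this library the liver markers stood at 2.11% and the muscle markers at 2.31% of the level in their own tissue, the highest of the 24 kidney libraries, and the kidney markers at 52.8% of the mean kidney level. Their part in these values was not tested.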
